A study of Homo sapiens with 8 samples.

Results

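The 3812 regions described here are the places in the genome where an ATF4 peak was listed in every one of 8 chromatin immunoprecipitation sequencing (ChIP-seq) libraries, 4 from each of 2 human leukaemia cell lines. They were chosen by a rule on the deposited peak lists: peaks of the 8 lists that shared at least 1 bp on chromosomes 1 to 22, X or Y were joined into 1 region, and a region was kept if all 8 lists had a peak in it. Joining gave 132657 regions in all, so the shared regions were 2.87% of them. They made up 15.1% of the 25184 regions that had a peak in all 4 Nalm6 libraries and 79.3% of the 4809 that had one in all 4 SUPB15 libraries.

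ATF4 is a basic leucine zipper transcription factor that is translated preferentially when cells run short of amino acids and the initiation factor eIF2 is phosphorylated, a programme called the integrated stress response. It binds DNA as a dimer with partners such as C/EBP proteins and is known for driving genes of amino acid synthesis, amino acid import and tRNA charging. L-asparaginase, a mainstay of acute lymphoblastic leukaemia (ALL) treatment, breaks down asparagine and, more slowly, glutamine outside the cell.

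Nalm6 and SUPB15 are established ALL lines of the B lineage, and both were grown in the same glutamine-supplemented medium. Each line was studied untreated and after L-asparaginase at 1 IU/ml for 2 h, with 2 libraries in each of the 4 groups and the same rabbit monoclonal ATF4 antibody throughout. The Nalm6 libraries are described as independent experiments; for SUPB15 nothing says whether replicates came from separate cultures, so its p-values measure only the spread between these libraries, which may be technical. Each line is a single cell line, so a difference between the lines cannot be told apart from a difference between the runs in which they were processed. A peak list holds no expression, so the labelled cell type could not be checked against markers.

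The lists differed in length, from 9575 and 9586 peaks in the untreated SUPB15 libraries to 34825 and 36801 in untreated Nalm6, 43376 and 48984 in treated Nalm6, and 88302 and 41213 in treated SUPB15. The untreated SUPB15 lists therefore set the limit on which regions could be shared. Of the 2924 regions present in exactly 7 lists, 2623 (89.7%) lacked a peak in 1 of those untreated SUPB15 libraries. The lowest −log10 q of a shared region over its 8 peaks had a median of 5.87 and reached down to 1.63, and the same value for regions in 7 lists, over their 7 libraries, had a median of 3.90. Presence in 8 lists is a threshold crossing in each list, and absence from a list does not show absence of binding.

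Shared regions held most of the leading peaks of every library. Among the 1000 peaks with the highest −log10 p in a list, those inside shared regions numbered 761 and 767 in untreated Nalm6, 765 and 763 in treated Nalm6, 926 and 899 in untreated SUPB15, and 851 and 852 in treated SUPB15. Among the peaks after the first 1000, the share fell to between 4.02% (treated SUPB15, replicate 1) and 37.3% (untreated SUPB15, replicate 2). Since a strong peak is more likely to be listed everywhere, these shares follow in part from the rule and are a description.

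Strength was measured in a pair of ways: the fold enrichment that the authors' peak caller wrote for each peak, and the relative pileup, which is the number of overlapping fragments at the summit plus 1, divided by the genome-wide background of that library. The median relative pileup of the shared regions was 20.9 and 23.7 in untreated Nalm6, 30.8 and 33.0 in treated Nalm6, 8.58 and 7.95 in untreated SUPB15, and 16.7 and 12.9 in treated SUPB15. The treated libraries of each line stood above both untreated libraries of that line. The median deposited fold enrichment kept that order within each line, at 7.26 and 7.62 against 8.80 and 8.95 in Nalm6 and at 4.45 and 4.22 against 6.80 and 5.96 in SUPB15. Within single regions, 2649 (69.5%) had their lowest fold enrichment in an untreated SUPB15 library and 2659 (69.8%) had their highest in a treated library of either line.

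**Figure D1:**
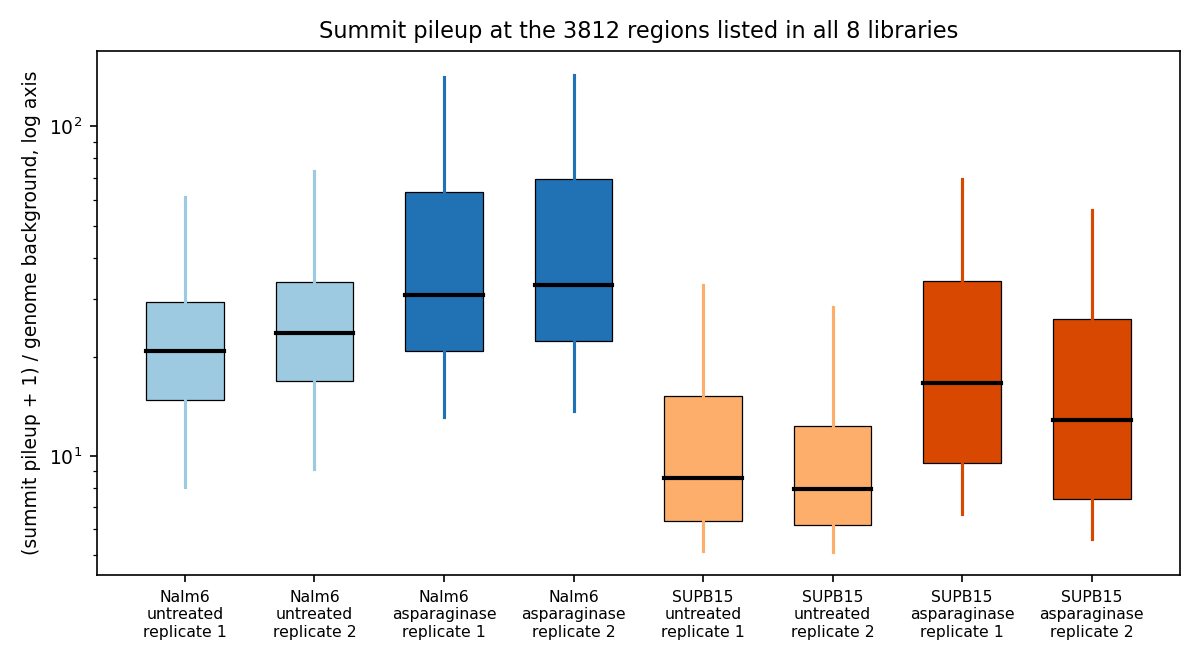
Relative pileup, (summit pileup + 1) / genome background on a log axis, of the 3812 shared regions in each of the 8 libraries; boxes span the 25th to the 75th percentile, thick lines are medians and thin lines run from the 5th to the 95th percentile of regions. The medians of treated libraries lie above those of untreated libraries in both lines, and the untreated SUPB15 medians, 8.58 and 7.95, are the lowest.

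Shared regions were wide and their summits lay close together. Their median width was 1119 bp, against 878 bp for the 21372 regions present in all 4 Nalm6 lists but not in all 4 of SUPB15, 644 bp for the 997 regions of the reverse kind, and 313 bp over all regions. A region spans all the peaks joined in it, so the greater width follows in part from asking for peaks in all 8 lists. A single peak in every list formed 2523 of them (66.2%). The distance between the summits of 2 libraries had a median over regions of 25 to 44 bp for the 4 pairs of replicates, 31 to 41 bp for the 8 pairs of an untreated and a treated library of the same line, and 43 to 57 bp for the 16 pairs taken from different lines. The untreated SUPB15 replicates gave the 44 bp and the other 3 pairs of replicates 25 to 32 bp, so summits of different lines lay farther apart than those of replicates except in that pair. Across all 8 libraries together the outermost summits of a region were a median of 160 bp apart, with the 25th and 75th percentile at 72 and 411 bp.

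The ranking of shared regions by fold enrichment was more alike between the lines after treatment than before it. Across the 3812 regions, Spearman's rho between a Nalm6 and a SUPB15 library ran from 0.43 to 0.50 for untreated pairs and from 0.68 to 0.70 for treated pairs, while the 4 pairs of replicates gave 0.83 to 0.95. Mixed pairs of the lines gave 0.32 to 0.39 for untreated Nalm6 with treated SUPB15. For treated Nalm6 with untreated SUPB15 they gave 0.51 to 0.62. The untreated SUPB15 replicates gave the 0.83 and the other pairs of replicates 0.91 to 0.95. The part of this lower agreement in the untreated values between lines was not tested. These correlations are across regions, which are not independent replicates and share the mappability and copy number of their place in the genome.

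The regions with the highest fold enrichment in their weakest library were of 2 kinds. Each of the 10 leading regions, ranked by that value, had a fold enrichment of at least 14.8 in every library. Within 500 kb of a stretch of at least 2.5 Mb in which no library had a peak lay 6 of the 10. The first of these, chrY:58827157-58827539 (hg19, 383 bp), had relative pileups of 27.6 and 28.0 in untreated Nalm6, 30.8 and 33.0 in treated Nalm6, 24.7 and 26.2 in untreated SUPB15 and 24.1 and 25.7 in treated SUPB15. All 8 values lay within a narrow band, the summits of the 8 libraries were 1 bp apart at most, and neither line had a called change. The next, chr8:43831394-43831775 (382 bp), gave 33.0 and 34.4, 38.0 and 38.6, 23.5 and 24.4, and 20.5 and 22.7 in the same order of groups, again with summits within 1 bp. The libraries of a group differed there by less than the lines did.

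The other 4 of the 10 were about 1 kb wide and had summits 21 to 76 bp apart. At chrX:24072250-24073327 the relative pileup was 87.8 and 103 in untreated Nalm6, 151 and 146 in treated Nalm6, 47.8 and 36.9 in untreated SUPB15, and 83.0 and 62.9 in treated SUPB15. Treated pileups exceeded untreated ones in both lines there, and neither change passed the test after centring. The fold enrichment of that region did not rise in Nalm6, at 16.3 and 16.1 untreated and 15.5 and 15.4 treated. In SUPB15 it was 20.0 and 18.1 untreated and 20.7 and 22.3 treated. At chrX:22703965-22704902 the relative pileups were 56.9 and 63.8, 119 and 132, 23.3 and 21.5, and 54.6 and 42.0. That region was called higher in Nalm6 (log2 change 0.69, SE 0.16, limma adjusted p = 0.000219), while the SUPB15 value of 0.49 (SE 0.28) did not pass (limma adjusted p = 0.168). Its fold enrichment showed no rise in Nalm6, at 15.97 and 15.98 untreated and 15.69 and 15.78 treated. In SUPB15 the fold went from 16.0 and 16.0 to 20.1 and 20.7. The 2 measures of strength thus differed on the Nalm6 change. The remaining leading regions of this kind, chr1:63988543-63989461 and chrX:54665248-54666499, had called changes in neither line.

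Of all shared regions, 96 (2.52%) lay near such peak-free stretches, against 0.545% of all 132657 regions. The share was 0.225% of the 21372 regions in all Nalm6 lists only and 6.82% (68) of the 997 in all SUPB15 lists only. They were narrow, with a median width of 484 bp against 1126 bp for the other 3716, and their summits had a median spread of 18 bp against 163 bp. Of the 45 shared regions whose 8 summits fell within 10 bp, 35 were among them. Before any centring, the median log2 change of their relative pileup with asparaginase was 0.20 in Nalm6 and -0.13 in SUPB15, against 0.47 and 0.59 at the other shared regions. After centring, 33 of the 96 (34.4%) were called lower and 1 (1.04%) higher in SUPB15, beside 4.04% and 19.9% of the other 3716. In Nalm6, 3 (3.12%) were lower and 8 (8.33%) higher, beside 12.4% and 43.1% of the others.

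At the weak end, the 5 regions with the lowest value of their weakest fold enrichment ran from 1.93 to 2.14 in that library. The lowest, chr16:46393015-46393315, is also near a peak-free stretch and had a relative pileup between 22.9 and 33.5 in all 8 libraries, so a high local background and not a small pileup gave its low fold. By contrast chr20:49435872-49436826, with fold enrichments of 2.51 and 2.10 in untreated Nalm6 and 4.26 and 4.15 in treated Nalm6, was called higher in both lines (log2 changes 0.93 and 1.00; limma adjusted p = 2.75e-05 and 0.0316).

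The change with asparaginase was tested in each line over all regions present in its 4 libraries, as the log2 difference in relative pileup after setting the median change of the fitted regions to 0. Within each of these tables the shared regions are set apart only by the lists of the other line. The median change removed was 0.37 in Nalm6 and 0.61 in SUPB15 (log2), so a region called lower rose less than the median or fell. A call needed a limma adjusted p under 0.05.

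In Nalm6, 1611 of the 3812 shared regions (42.3%) were higher with asparaginase and 462 (12.1%) were lower. Over all 25184 fitted regions, 22.7% were called higher and 8.66% lower; among the 21372 that were not shared the shares were 19.2% and 8.04%. At least 2-fold higher were 1023 shared regions (26.8%) against 9.12% of those not shared. Without centring, 1874 shared regions were higher and 11 lower in Nalm6, so nearly all lower calls rest on the centring, and with log2 fold enrichment 950 were higher and 222 lower. Leaving out treated replicate 1 or 2 left 99 or 106 lower calls.

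The share of shared regions that rose in Nalm6 was highest where the untreated level was lowest. The 25184 regions were put into 4 bins of nearly equal size by their untreated relative pileup. The untreated values that set the bins also enter the change, here and for SUPB15 below. A low untreated value thus favours a higher change by construction. Among the regions not shared, the median change fell from 0.12 in the lowest bin to -0.29 in the highest. In the lowest bin, 146 of 188 shared regions (77.7%) were higher with asparaginase, beside 1294 of 6138 others (21.1%). The next bin gave 53.2% beside 18.2%, the one above it 37.4% beside 18.0%, and the highest bin 39.6% beside 19.5%. These shares are a description of the Nalm6 fit, with no test between the sets; a weak Nalm6 region could be shared only if SUPB15 cells had a peak there in both conditions.

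In SUPB15, 739 shared regions (19.4%) were higher and 183 (4.80%) lower, against 20.9% and 5.61% of all 4809 fitted regions and against 26.5% and 8.73% of the 997 not shared with all Nalm6 lists. Without centring 1775 were higher and 3 lower, with log2 fold enrichment 643 were higher and 474 lower, and when only regions above the median level were fitted 27 were higher and 503 lower, so the direction of the balance depends on the regions fitted. By bin of the untreated level, the share higher climbed from 6.44% in the lowest to 14.6%, 25.8% and 29.1% in the highest, beside 18.3%, 28.3%, 29.9% and 35.5% of the regions not shared. The SUPB15 calls depend on single libraries: without untreated replicate 1, 6 shared regions were called higher and 4 lower, and without untreated replicate 2 limma called 0 in either direction, with 248 higher and 58 lower at an unadjusted p under 0.05. Without treated replicate 1, 295 were higher, and without treated replicate 2, 384 were lower.

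In both lines the changes at shared regions had 2 modes. In Nalm6 the fullest bins of 0.2 lay at −0.4 to -0.2 (627 regions) and at 1.2 to 1.4 (277 regions), with 129 regions in the trough bin from 0.2 to 0.4. In SUPB15 they lay at −0.4 to -0.2 (651 regions) and at 0.8 to 1.0 (373 regions), with 196 regions in the trough bin from 0.2 to 0.4. Above the trough stood 1642 shared regions (43.1%) in Nalm6 and 1386 (36.4%) in SUPB15, and 1268 were above it in both, which is 77.2% of the Nalm6 set and 91.5% of the SUPB15 set. This division uses no threshold of the test and is a description. The 997 other SUPB15 regions had 2 modes as well, with 123 regions at -0.6 to -0.4 and 131 at 0.8 to 1.0, so this shape is not particular to the shared regions.

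**Figure D2:**
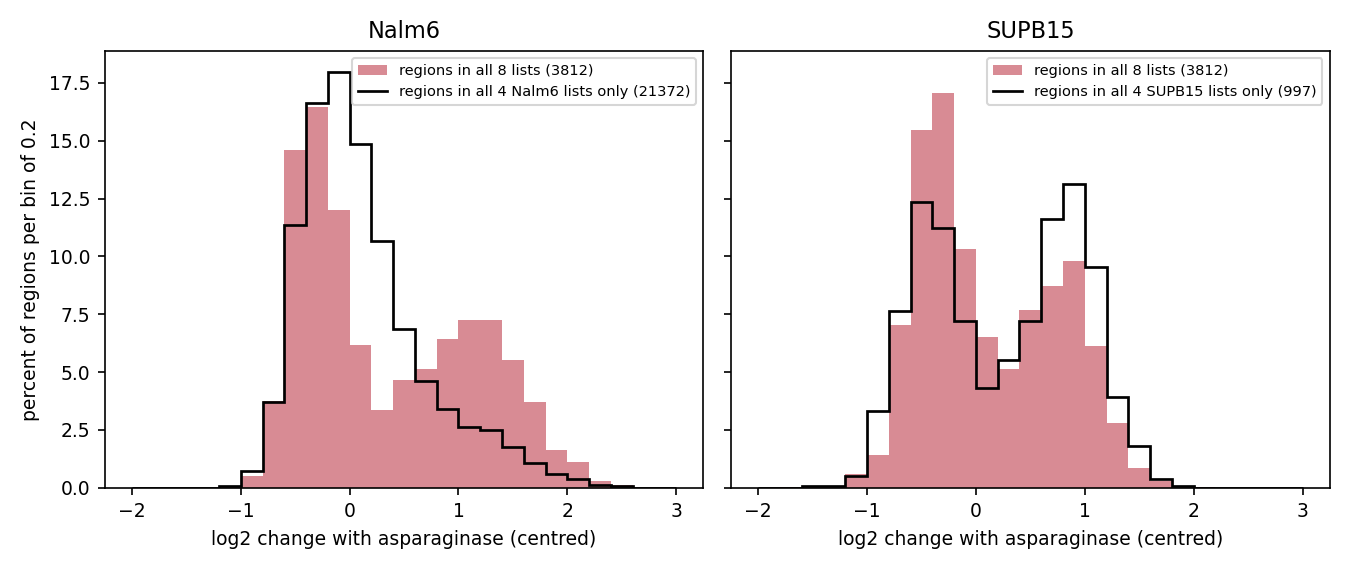
Percent of regions per bin of 0.2 in the centred log2 change with asparaginase, in Nalm6 (left) and SUPB15 (right); filled bars are the 3812 shared regions and lines are the other regions fitted in that line. The shared regions form 2 groups in each line, with a trough at 0.2 to 0.4. The other SUPB15 regions also form 2 groups, with a trough at 0.0 to 0.2, while the other Nalm6 regions form a single peak with a tail to higher values.

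Taken by region, the lines moved together. Called higher in both were 697 shared regions, with median log2 changes of 1.22 and 1.03. They were 43.3% of those higher in Nalm6, beside 19.4% of all shared regions called higher in SUPB15. They were 94.3% of those higher in SUPB15, beside 42.3% of all shared regions called higher in Nalm6. Another 893 were higher in Nalm6 and not called in SUPB15. Of these, 776 (86.9%) had a SUPB15 change above 0. The median SUPB15 change of the 893 was 0.50, beside -0.04 over all 3812 shared regions. Higher in SUPB15 and not called in Nalm6 were 41. Called lower in both were 41, and 1577 (41.4%) were called in neither. The changes of the lines correlated across the 3812 regions with Pearson's r = 0.76 and Spearman's rho = 0.73, as a description; the lines share no library. Without SUPB15 untreated replicate 1 or 2, 6 or 0 regions were called higher in both, and without SUPB15 treated replicate 1 there were 284. With log2 fold enrichment there were 448, and with only regions above the median level 27.

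**Figure D3:**
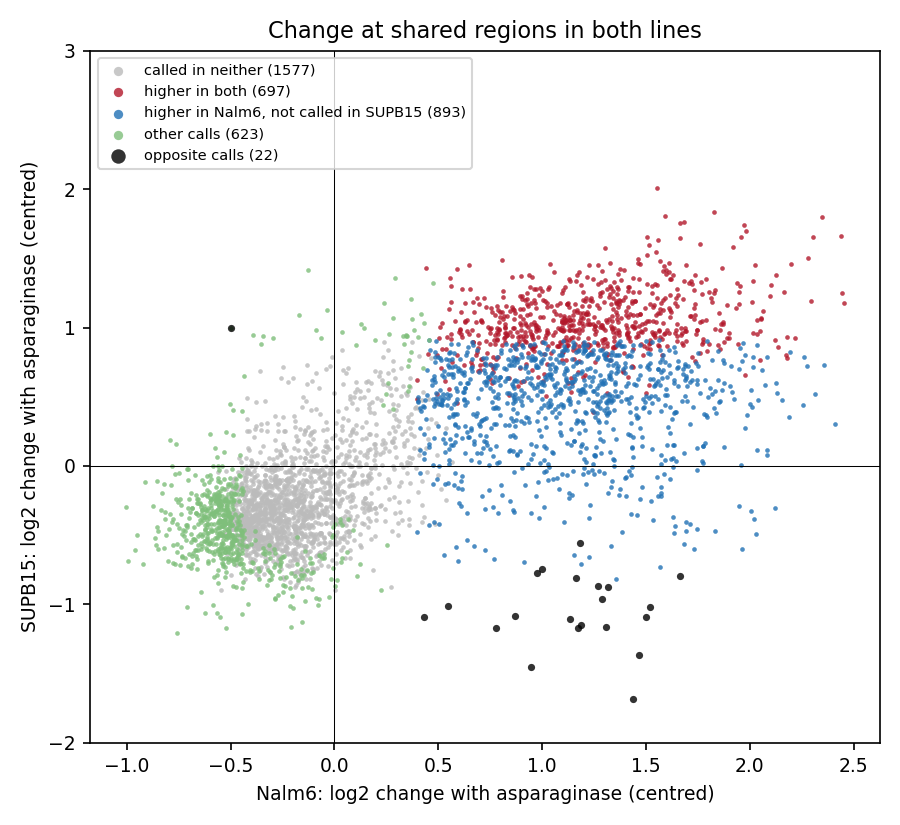
Centred log2 change with asparaginase at each of the 3812 shared regions in Nalm6 (horizontal) and SUPB15 (vertical), coloured by the calls in both lines. The 697 regions higher in both lie at the upper right, the 893 called higher in Nalm6 only lie mostly above 0 in SUPB15, and the 22 with opposite calls are drawn in black.

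The region chr1:212856290-212857078 was among the largest changes of both lines. Its relative pileup was 6.06 and 10.4 in untreated Nalm6, 50.3 and 54.1 in treated Nalm6, 9.07 and 6.41 in untreated SUPB15 and 52.0 and 31.6 in treated SUPB15. All 4 treated values were above all 4 untreated ones, with log2 changes of 2.35 (SE 0.20) in Nalm6 and 1.80 (SE 0.36) in SUPB15 (limma adjusted p = 7.23e-24 and 0.00022). At chrX:19905464-19907273 the values were 20.2 and 30.1, 113 and 113, 8.09 and 5.13, and 43.2 and 28.5, with changes of 1.83 and 1.84. At chr16:22302823-22303867 they were 22.9 and 25.8, 93.3 and 109, 14.0 and 9.49, and 67.1 and 52.7, with changes of 1.68 and 1.76. Treated and untreated libraries did not overlap within either line at these regions. At chr6:12044709-12045688 the changes were 1.97 and 1.74, and at chr8:1842804-1843669 they were 1.98 and 1.70. These 5 had the largest smaller change among regions higher in both lines, a choice made after their values were seen.

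The largest Nalm6 rises were at chr22:46964194-46964948, chr20:43664567-43665374 and chr11:9632486-9633299, with log2 changes of 2.45, 2.45 and 2.44. At the first of them the relative pileup went from 5.72 and 6.09 to 38.9 and 44.6 in Nalm6, and in SUPB15 it was 8.33 and 10.3 untreated and 40.8 and 24.95 treated. All 3 were also called higher in SUPB15. The change was nonetheless called larger in Nalm6 at the chromosome 22 and 20 regions (differences -1.16 and -1.08, limma adjusted p = 0.0308 and 0.0452). Next in size came chr8:27965076-27965924 and chr2:55379883-55381072, with Nalm6 changes of 2.41 and 2.36, and neither was called in SUPB15 (0.31 and 0.73). Their differences were -1.99 and -1.52 (limma adjusted p = 4.87e-07 and 0.00267). The largest SUPB15 rise was at chrX:70752348-70754215, where the value went from 5.39 and 5.90 to 40.6 and 29.5 (log2 change 2.01, SE 0.36, limma adjusted p = 4.56e-05), and Nalm6 rose there by 1.56. The lower calls in Nalm6 were smaller: the largest, chr4:1872004-1872894, had 30.0 and 32.3 untreated and 19.0 and 21.0 treated (log2 change -1.003, SE 0.19, limma adjusted p = 2.94e-06), and chr16:3661049-3662113 had 16.2 and 23.3 untreated and 12.2 and 12.9 treated. Both were lower before centring too. In SUPB15, chr16:3661049-3662113 was also called lower (-0.68, limma adjusted p = 0.0404), with values of 6.86 and 6.92 untreated and 7.64 and 5.60 treated, which overlap.

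**Figure D4:**
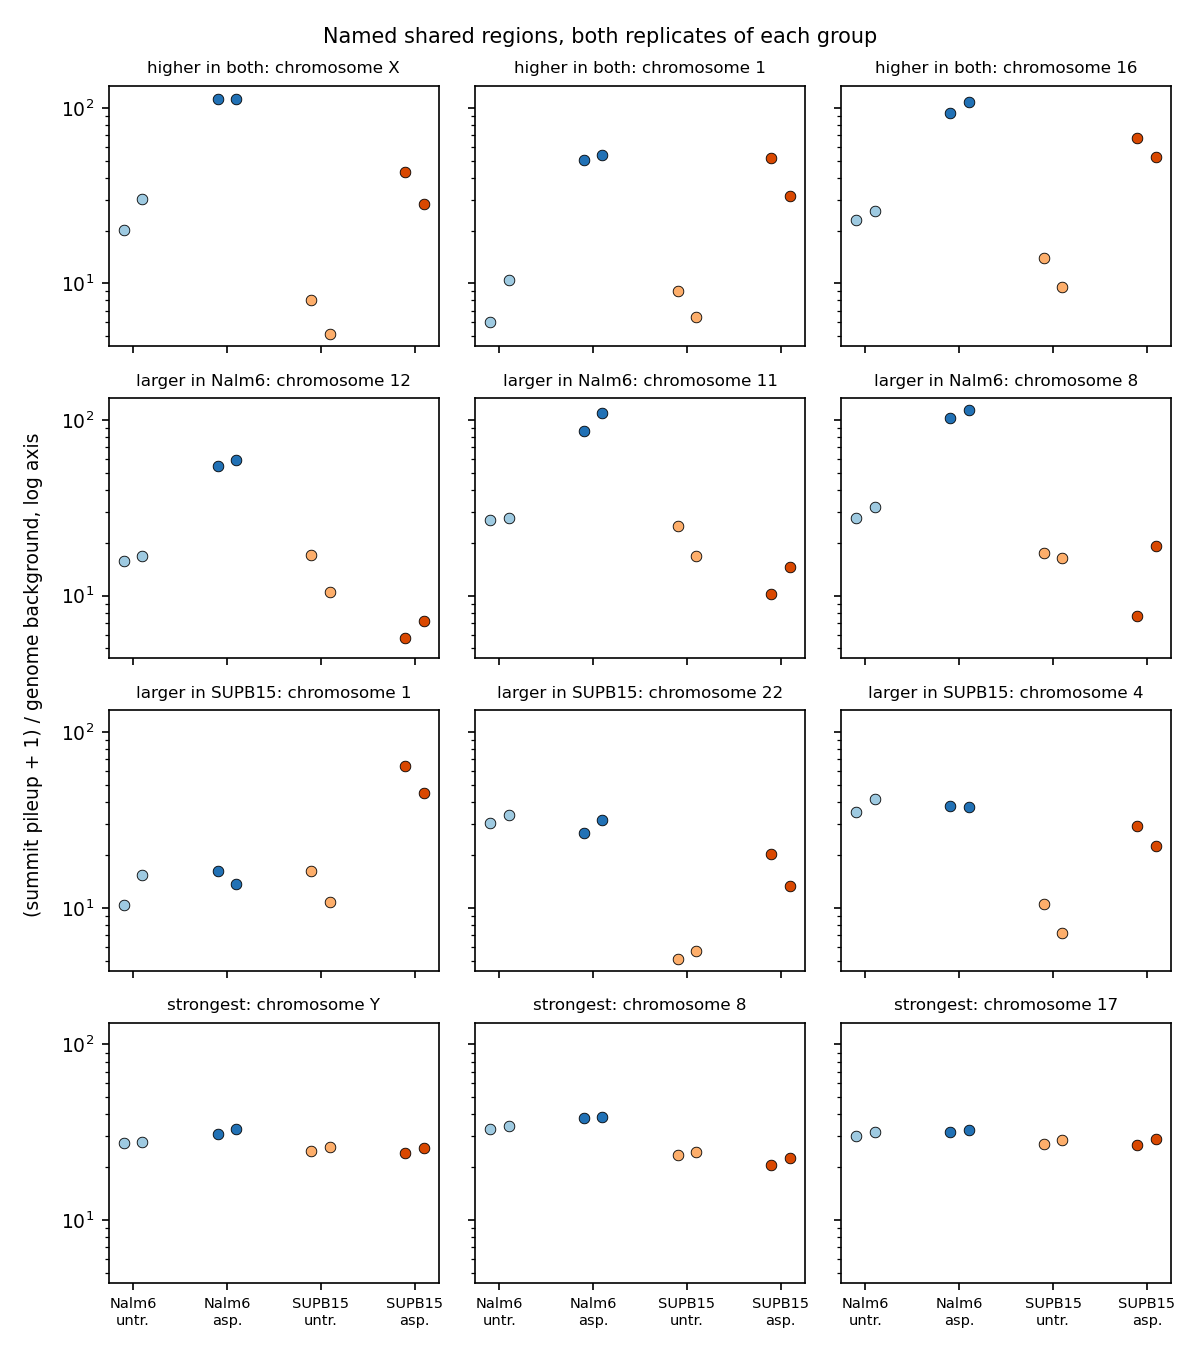
Relative pileup on a log axis in both replicates of each group (dots) at 12 shared regions: 3 (on chromosomes X, 1 and 16) of the 5 with the largest smaller change among those higher in both lines, 3 each with the largest difference between lines in either direction, and the 3 with the highest lowest fold enrichment. Treated dots lie above untreated ones in both lines in the top panels. In the bottom panels the treated and untreated dots of a line lie close together. Their chromosome Y region runs from 24.1 to 33.0, and their chromosome 8 region from 20.5 in SUPB15 to 38.6 in Nalm6.

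Regions called higher in Nalm6 had closely aligned summits before treatment, as a description with no test. Measured on the 4 untreated libraries alone, the outermost summits of the 697 regions higher in both lines were a median of 60 bp apart, and 41.0% lay within 50 bp. For the 893 called higher in Nalm6 only, the median was 71 bp, and for the 1577 called in neither it was 196 bp, with 14.1% within 50 bp. Regions lower in Nalm6 and not called in SUPB15 (420) had a median of 164 bp. The 41 regions higher in SUPB15 and not called in Nalm6 had a wide spread, a median of 247 bp with 14.6% within 50 bp. The regions higher in both were also narrower, at a median of 981 bp against 1215 bp for those called in neither. Their untreated relative pileup was 20.5 and 25.8 in Nalm6 and 12.5 and 10.3 in SUPB15, beside 19.5 and 21.9 and 7.11 and 6.67 at regions called in neither. The Nalm6 levels of both sets were thus nearly alike and the SUPB15 levels were higher in the first; the part of the level in the spread was not tested.

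**Figure D5:**
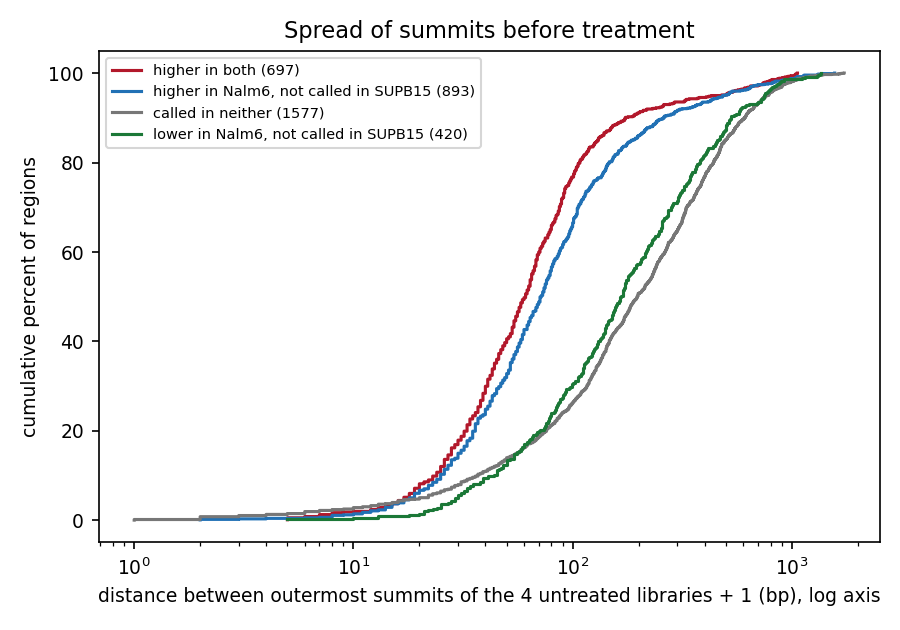
Cumulative percent of shared regions by the distance between the outermost summits of the 4 untreated libraries (bp + 1, log axis), for 4 classes of calls. The curve of regions higher in both, median 60 bp, runs to the left of that of regions called in neither, median 196 bp.

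A direct test of the difference between the lines, the interaction of line and treatment over the 3812 regions, called a larger change in Nalm6 at 188 (4.93%) and a larger change in SUPB15 at 19 (0.498%), with 530 at an unadjusted p under 0.05. Of the 188, 159 were higher in Nalm6 and not called in SUPB15, and 21 were called higher in Nalm6 and lower in SUPB15. Among the 697 regions higher in both, 9 had a called difference. Only regions with a peak in all 8 lists could enter, so a site lost from any list after treatment was not tested. Leaving out 1 library gave 77 (Nalm6 untreated replicate 1), 124 (Nalm6 untreated replicate 2), 77 and 80 (Nalm6 treated replicates 1 and 2), 86 (SUPB15 untreated replicate 1) or 318 (SUPB15 treated replicate 2) in place of 188. In place of 19 the same 6 gave 4, 5, 2, 1, 5 and 50, and leaving out SUPB15 untreated replicate 2 gave 8.

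The 21 regions with opposite calls lay on 12 chromosomes. Their median relative pileup was 27.6 and 35.1 in untreated Nalm6 and 91.5 and 105 in treated Nalm6, with the treated values above both untreated ones at all 21. In SUPB15 it was 15.7 and 10.5 untreated and 6.92 and 9.93 treated. Before centring, the mean SUPB15 change was below 0 at 20 of the 21, but both treated values lay under both untreated ones at only 5. The largest difference was at chr12:89602281-89603289, where the relative pileup was 15.8 and 16.9 in untreated Nalm6, 54.8 and 59.2 in treated Nalm6, 17.2 and 10.5 in untreated SUPB15, and 5.73 and 7.13 in treated SUPB15. Treated libraries were above the untreated ones in Nalm6 and below them in SUPB15, a difference of -3.00 (SUPB15 minus Nalm6, log2, each line centred on the shared regions; SE 0.37, limma adjusted p = 8.93e-13). At chr11:63456400-63457557 the values were 26.9 and 27.6, 86.5 and 109, 24.99 and 16.9, and 10.3 and 14.5 (difference -2.72, limma adjusted p = 5.15e-09); its lower call in SUPB15 was lost without centring. At chr8:16422888-16423893 they were 27.6 and 31.9, 102 and 114, 17.4 and 16.4, and 7.64 and 19.1, so the SUPB15 groups overlapped (difference -2.48, and -1.17 and not called with log2 fold enrichment).

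In the other direction, chr1:179334622-179335691 had 10.4 and 15.4 in untreated Nalm6, 16.3 and 13.7 in treated Nalm6, 16.2 and 10.8 in untreated SUPB15 and 64.0 and 45.1 in treated SUPB15. The Nalm6 groups overlapped and the SUPB15 groups did not (difference 1.66, SE 0.38, limma adjusted p = 0.000761), but with log2 fold enrichment the difference was 0.70 and not called. At chr22:24666450-24667840 the values were 30.3 and 33.7, 26.7 and 31.7, 5.15 and 5.64, and 20.3 and 13.2 (difference 1.61, limma adjusted p = 0.000703), and this was the 1 region called lower in Nalm6 and higher in SUPB15. The Nalm6 groups overlapped there, and the Nalm6 change of -0.50 was measured after a median rise of 0.37 was removed.

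Strong sites have a ceiling in these files: no summit pileup in any list exceeded 400. A pileup of at least 320 in some library was found at 277 shared regions, among them 100 of the 697 higher in both (14.3%) and 51 of the 1577 called in neither (3.23%). Whether the ceiling lowered the changes at such sites was not tested. Over the 3535 shared regions without such a pileup, the correlation of the changes of both lines was 0.76, as over all.

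Shared regions were spread over all 24 chromosomes, with a median of 294 kb between neighbours, and 149 of 3788 neighbouring pairs were within 10 kb. They made up 1.52% of the regions of chromosome 8 and 2.77% of those of chromosome 1, up to 3.98% on chromosome 17 and 7.34% on Y, where 13 regions were shared. Chromosome 8 held 11.3% of all regions and 5.95% of the shared ones. The share higher in both lines ran from 7.69% on Y (1 of 13) and 11.9% on chromosome 8 to 30.9% on chromosome 22 (17 of 55). Of the 697 regions higher in both lines, 601 lay outside chromosomes 1 and 8. Without these chromosomes in the fit, 446 of the remaining 3167 shared regions were higher in both lines. The median change removed in SUPB15 was then 0.68 in place of 0.61. Leaving out the regions near peak-free stretches, which held 1 of the 697, gave 543.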

How the data were processed

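Each of the 8 libraries came with 1 deposited peak list. Per the submitters' processing notes, BWA, MACS2 and DiffBind were used with hg19; their versions and parameters, and whether an input control served, remain not given in the sources used here. In these lists the authors give each peak's fold enrichment (a ratio), its −log10 p and −log10 q, and its summit offset (bp).

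From fold and −log10 p, the whole-number summit pileup and local background were recovered by inverting the Poisson formula of MACS2; 100% of peaks in every list gave a whole pileup within 0.001 in −log10 p. As the genome background of a library served the smallest local background in its list. The strongest peak of a library stood for a region. log2((pileup + 1) / genome background) was centred on the median change and tested with limma 3.58.1 (empirical Bayes with trend, Benjamini-Hochberg, adjusted p under 0.05) in R 4.3.3; Python 3.11.15 did the rest. The recovery of pileups, the joining of peaks and the limma fit within a line were tested on simulated data. The test of the difference between lines and the other descriptions were not. In the simulated fit few regions changed, as many up as down. Centring where many regions change and most calls go up was therefore not put to the test. The number of reads is unknown, so depth is known only as the genome background, 2.21 to 2.97 in Nalm6 and 3.90 to 4.19 in SUPB15.

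Members and lists were chosen with earlier results of these data known. Regions named in the text are the 10 with the highest and the 5 with the lowest weakest fold enrichment, the 5 largest called changes each way per line (the largest are printed), 3 each way for the difference between lines, and 5 added after their values were seen. Genes, transcription starts and sequence motifs were not used here, because no annotation or genome of hg19 was at hand. A further Nalm6 experiment per condition mentioned in the design text was not analysed here. Alternatives are given in the closing section.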

Additional observations from a re-analysis of the deposited data

Results flagged for a closer look

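The change with asparaginase differed between the lines at 188 shared regions with a larger change in Nalm6 and at 19 with a larger change in SUPB15, by the limma interaction of line and treatment. The largest differences (SUPB15 minus Nalm6, log2) were -3.00 at chr12:89602281-89603289, -2.72 at chr11:63456400-63457557 and -2.48 at chr8:16422888-16423893. In the other direction they were 1.66 at chr1:179334622-179335691, 1.61 at chr22:24666450-24667840 and 1.45 at chr4:73934159-73935917. The last had relative pileups of 35.0 and 41.9 in untreated Nalm6, 38.0 and 37.3 in treated Nalm6, 10.5 and 7.18 in untreated SUPB15 and 29.1 and 22.4 in treated SUPB15, and its call was lost when any 1 of 5 libraries was left out. The difference at chr1:179334622-179335691 was not called with log2 fold enrichment (0.70) or without Nalm6 treated replicate 2 (1.51), and that at chr8:16422888-16423893 was not called with log2 fold enrichment (-1.17).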

How the results depend on the processing

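The number of shared regions was 2232 and 1269 with a −log10 q of at least 5 and 10, and 1772 from equally long lists; without 1 library it ran from 3814 to 5417. With log2 fold enrichment in place of relative pileup, 950 shared regions were higher and 222 lower in Nalm6, 474 were lower in SUPB15, 448 were higher in both, and the difference was larger in Nalm6 at 70 and in SUPB15 at 45. Without centring, 11 were lower in Nalm6; 1775 were higher and 3 lower in SUPB15; 1597 were higher in both, and 29 had a larger change in SUPB15. Without limma's trend, 290 were lower in Nalm6. Fitting only regions above the median level removed a median change of 1.27 in place of 0.61 in SUPB15 and left 27 higher and 503 lower there, and 27 higher in both. Leaving out 1 library gave 1279 to 1631 higher and 99 to 383 lower in Nalm6, 0 to 803 higher and 0 to 384 lower in SUPB15, 0 to 736 higher in both, 77 to 318 with a larger change in Nalm6 and 1 to 50 in SUPB15. With the replicate block (the replicate number as a term), 777 were lower in Nalm6, 1241 higher and 544 lower in SUPB15, 1156 higher in both, and 359 and 52 had a larger change in Nalm6 and in SUPB15; the deviations of same-numbered libraries correlated at 0.034 in Nalm6 and 0.086 in SUPB15, so the numbers were not taken to pair the libraries. Without chromosomes 1 and 8, an alternative chosen after seeing the data, 463 were higher in SUPB15 and 446 in both. The median distance between summits, 42 bp, was 27 bp in regions under 1000 bp wide and 31 bp in those with 1 peak in every library. The cause of these shifts was not tested. The 26 called changes and differences of named regions that were followed kept their direction under every alternative run. Direction alone was kept in 33 of these runs, where the call was lost. Most of them were SUPB15 changes with 1 untreated library left out. Other changes at named regions were not followed, among them those at the regions with the highest and the lowest weakest fold enrichment. At chrY:58827157-58827539 the centred Nalm6 change was -0.17, though both treated pileups lay above both untreated ones. The balance of SUPB15 calls turned, from 739 higher and 183 lower to 27 and 503, when only regions above the median level were fitted. Shares near transcription starts and with motifs were not run.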
